A study of Mus musculus with 12 samples.

Results

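GABA-A receptors are the chloride channels through which GABA inhibits most neurons of the brain. The transcripts of 7 of their subunits were followed here in the hypothalamus of single mice: the alpha subunits Gabra2, Gabra3, Gabra4 and Gabra5, the beta subunits Gabrb1 and Gabrb2, and the delta subunit Gabrd. They were chosen by gene symbol and are 7 of the 32494 genes listed. RNA sequencing covered 12 male mice, all with floxed Smc3 and all treated with tamoxifen, so the controls carried the floxed gene and received the drug as well. The 7 mice labelled WT were Camk2a-cre/ERT2- and the 5 labelled cKO were Camk2a-cre/ERT2+, a transgene whose Camk2a promoter drives a tamoxifen-dependent Cre in forebrain excitatory neurons, so that recombination was directed at a fraction of the cells in the tissue. Hypothalamus was taken 5 weeks after tamoxifen. The growth protocol gives mice of 8 weeks without naming the step, and the titles of both groups carry the word control. Smc3 is part of cohesin, a ring-shaped protein complex needed for chromatin loops, and the study's title concerns its part in weight and metabolism.

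A GABA-A receptor is a ring of several subunits, most often alpha with beta and a gamma subunit, and GABA binds where an alpha subunit meets a beta subunit. The alpha subunit sets much of the drug sensitivity and location of the channel. Delta takes the place of gamma in receptors outside the synapse, which carry a sustained (tonic) current and respond to neurosteroids. Alpha4 is the usual partner of delta, as in relay neurons of the thalamus and granule cells of the dentate gyrus, and in the hypothalamus GABA-A receptors restrain the neurons that drive feeding, stress hormone release and reproduction.

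Most subunit genes stand in clusters. In the RefSeq gene order Gabra2, Gabra4 and Gabrb1 follow one another on chromosome 5 beside Gabrg1, Gabrb2 lies on chromosome 11, Gabra5 on chromosome 7, and Gabra3 between Gabre and Gabrq on the X chromosome, whereas Gabrd stands alone on chromosome 4 between Prkcz and Cfap74. Gabra4 and Gabrb1 start head to head: the RefSeq start of Gabra4 on the minus strand and the first start of Gabrb1 on the plus strand are 387 bases apart on GRCm38.p6, and their transcripts overlap there. These windows (250 bases before to 50 after the start) are shown because neighbours with such close starts can be set against each other below, and the first Gabrb2 window because Gabrb2 was one of the genes that changed. Capitals mark matches, on either strand, to an EGR element (GCGNGGGCG, in 5.55% of all 32851 RefSeq windows of this length) or a TATA box (TATAAA, in 13.6%).
Gabra4 promoter, chr5:71658259-71658558, minus strand: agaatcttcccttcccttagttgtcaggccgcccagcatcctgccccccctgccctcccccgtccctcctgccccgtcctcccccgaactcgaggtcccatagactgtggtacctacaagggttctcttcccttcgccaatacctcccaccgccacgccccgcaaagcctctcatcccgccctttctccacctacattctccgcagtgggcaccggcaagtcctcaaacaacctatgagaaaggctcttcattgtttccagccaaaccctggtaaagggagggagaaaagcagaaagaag
Gabrb1 promoter, chr5:71657671-71657970, plus strand: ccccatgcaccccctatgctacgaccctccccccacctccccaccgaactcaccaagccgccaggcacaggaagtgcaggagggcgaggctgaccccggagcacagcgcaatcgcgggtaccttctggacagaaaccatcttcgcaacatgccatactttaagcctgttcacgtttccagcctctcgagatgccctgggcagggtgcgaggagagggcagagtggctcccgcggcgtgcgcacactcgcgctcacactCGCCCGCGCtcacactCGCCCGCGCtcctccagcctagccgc
Gabrb2 promoter, chr11:42420190-42420489, plus strand: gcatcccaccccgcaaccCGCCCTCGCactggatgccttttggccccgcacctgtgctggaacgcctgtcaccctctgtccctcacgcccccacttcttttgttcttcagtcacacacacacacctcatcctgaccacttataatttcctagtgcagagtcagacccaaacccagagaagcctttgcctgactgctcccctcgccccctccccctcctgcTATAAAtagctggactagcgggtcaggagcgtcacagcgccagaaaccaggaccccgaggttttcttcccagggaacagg
The Gabrb1 window held 2 EGR elements and 25 CpG dinucleotides at 66.0% GC, and the Gabra4 window no motif and 12 CpG at 58.7% GC. The Gabrb2 window held an EGR element and a TATA box at 59.0% GC, and neither motif overlapped another. A cAMP response element (TGACGTCA, in 1.79% of windows) and the core of the CTCF motif (in 0.0365%) were searched for too, and neither had a match in the 10 windows of the 6 genes with an entry. The windows of Gabra3 had no CpG at all, against a median of 7 over all windows, and their GC content was 43.0% and 39.3% against a median of 52.7%. A match is a description of the letters only.

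The libraries held 17.1 M to 24.0 M recovered reads (M, a megaread), apart from WT 1 with 68.7 M, so that 3 reads correspond to between 0.0436 and 0.178 CPM (reads per megaread of the library, as normalized by the authors). Smc3, the floxed gene, was higher and not lower in the libraries labelled cKO. Its level was 76.8, 83.0 and 85.7 CPM (lowest, median and highest) in the WT libraries and 144, 132, 116, 126.5 and 136 CPM in cKO 8, 9, 12, 13 and 14, a difference of 0.67 ± 0.05 (SE) on the log2(CPM + 1) scale (limma, adjusted p = 3.06e-05). Every library labelled cKO lay above every WT library. The labels do not say which exons are floxed, and reads from outside a deleted part check nothing, so the groups are called below the libraries labelled WT and cKO. Over all genes, 2172 of the 15359 tested (14.1%) passed an adjusted p of 0.05 in limma, with 1004 genes (6.54%) up and 1168 (7.6%) down under the cKO label. Centring each library on its median turned that split to 1377 up and 1054 down. The count of 2172 fell to 1161 without WT 1 and was 5126 with array weights.

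Regional markers differed between mice of the same group. Oxt, the hormone of paraventricular and supraoptic neurons, was between 0.28 and 2.33 CPM in WT 4, WT 5, cKO 12 and cKO 13 and between 69.5 and 348 CPM in the other 8 libraries (5 WT, 3 cKO), and Avp followed the same split. WT 11 was nearly without the lateral hypothalamic genes Hcrt (0.37 CPM) and Pmch (1.03 CPM). Of the 14 markers of hypothalamic neurons, 0 were at 0 in all libraries, 2 (Fezf1 and Nr5a1) were at or under the floor in at least 1, and their score (mean log2(CPM + 1)) was 3.86 ± 0.92 (SD, n = 7) in WT and 4.24 ± 0.81 (n = 5) in cKO (exact permutation p = 0.480, two-sided), with 1 marker, Sim1, called higher in cKO by limma and 0 lower. Of these 14 markers 3 had negative fold changes and the rest positive ones. The 11 markers of thalamic neurons, none of them at 0, summed to 725 to 1485 CPM in the WT libraries and 454 to 843 CPM in the cKO libraries. All 11 had negative fold changes, and limma called 5 of them lower, beside 7.6% lower and 6.54% higher over all tested genes. The score of the 11 was 6.09 ± 0.40 in WT and 5.46 ± 0.40 in cKO (exact permutation p = 0.0152). The score of 6 general neuronal markers was 8.74 in WT and 8.82 in cKO (exact permutation p = 0.0543), with Stmn2 and Elavl4 called higher. The microglial score was 4.88 in WT and 5.00 in cKO (exact permutation p = 0.0404), and the astrocyte, oligodendrocyte, endothelial, ependymal and cortical or striatal scores had exact permutation p from 0.149 to 0.957. None of the p-values of the marker scores, the thalamic one among them, was adjusted for the number of scores tested. In bulk tissue, fewer cells of a type and less RNA per cell cannot be told apart.

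Among the 7 subunit genes, Gabrd and Gabrb2 were lower in the libraries labelled cKO and none was higher. All 7 passed the minimum mean of 1 CPM, so 2 of 7 (28.6%) passed the limma test, against a background of 14.1% in either direction and 7.6% for lower. The same 2 passed in edgeR's quasi-likelihood test (background 13.7%) and in DESeq2 (background 17.9%) on recovered reads, and the other 5 did not. The median log2 fold change of the 7 was -0.04, beside 0.01 over all genes tested. For none of the 7 did the ranges of the groups stay apart, which 6.73% of all tested genes showed. Fold changes are differences of log2(CPM + 1), cKO minus WT.

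**Figure D1:**
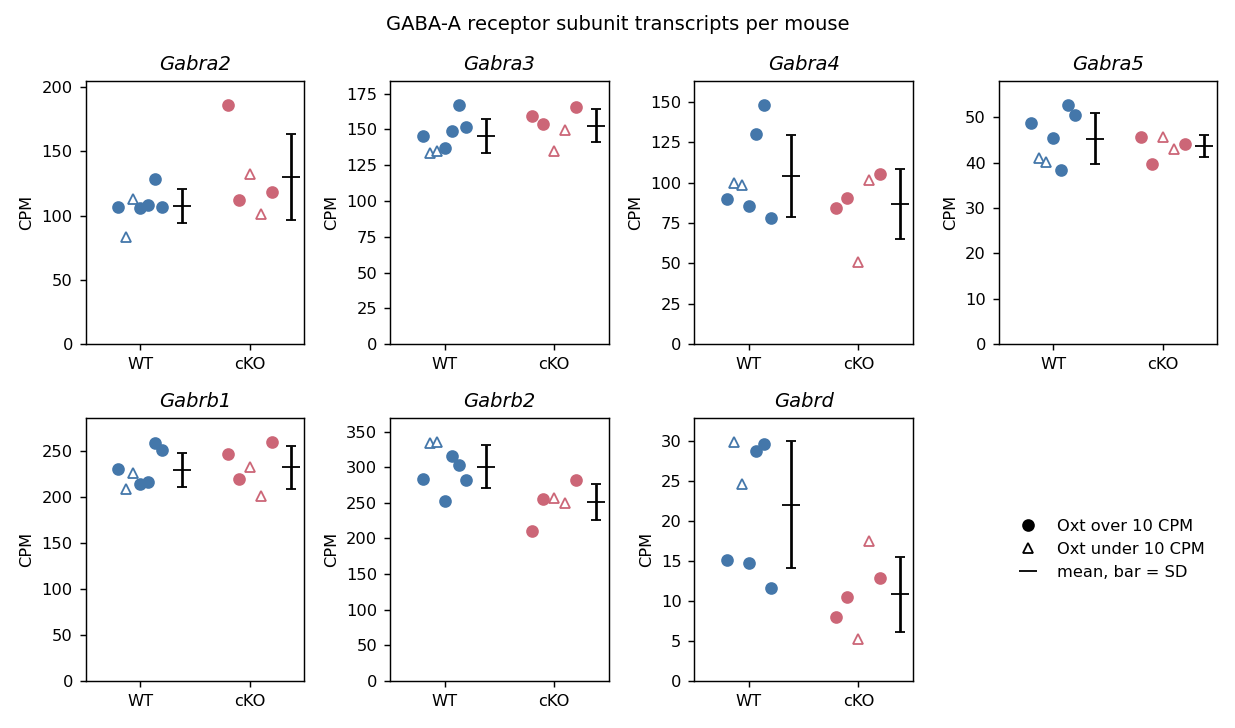
CPM of the 7 subunit transcripts (y axes, each from 0) in each mouse, by label on the x axis; the bars beside the points are mean ± SD, and triangles are the 4 libraries with Oxt under 10 CPM. Gabrd is lowest in cKO 12 at 5.27 CPM, and the WT libraries form a low group of 3 and a high group of 4 for this gene, while the Gabra5 values of the cKO libraries all lie inside the WT range.

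Gabrd, the delta subunit of extrasynaptic receptors, showed the largest difference of the 7. The WT libraries held 11.7, 24.6 and 29.9 CPM (lowest, median and highest). The cKO libraries held 7.93 (cKO 8), 10.5 (cKO 9), 5.27 (cKO 12), 17.4 (cKO 13) and 12.8 CPM (cKO 14). Below every WT library lay 3 of the 5 cKO libraries, and above every cKO library lay 4 of the 7 WT libraries. The WT values themselves split into WT 15, WT 6 and WT 1 at 11.7 to 15.1 CPM, which lay among the cKO values, and WT 5, WT 7, WT 11 and WT 4 at 24.6 to 29.9 CPM. Means were 22.0 ± 7.95 CPM (SD, n = 7) in WT and 10.8 ± 4.66 CPM (n = 5) in cKO, a ratio of 0.490 and a difference of -0.98 ± 0.28 on the log2 scale (SE; limma, adjusted p = 0.0365; exact permutation p = 0.0189, two-sided). The values rest on 113 (cKO 12) to 1037 (WT 1) reads. The authors' deposited table gives a log2 fold change of -1.03 with an FDR of 0.0156, in a test that called 4.94% of all listed genes.

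The Gabrd call depended on the libraries and on the thalamic markers. In the 8 libraries with Oxt above 10 CPM the means were 19.9 (WT) and 10.4 CPM (cKO), a log2 fold change of -0.80 (limma adjusted p = 0.103), and in the other 4 they were 27.2 and 11.3 CPM, -1.39 (adjusted p = 0.168). Leaving out each library in turn gave -1.16 to -0.77, and without any 1 of 8 libraries (WT 4, 5, 7 and 11, cKO 8, 9, 12 and 14) the adjusted p was above 0.05, at most 0.0785. With the thalamic marker score as a covariate in limma, a fit in which 4.48% of all tested genes passed, the difference in Gabrd was -0.22 (adjusted p = 0.554). With the general neuronal score instead it was -1.63 (adjusted p = 0.00140), and with the hypothalamic score -0.90 (adjusted p = 0.0396). Beyond these fits, the part of thalamic tissue in the Gabrd difference was not tested.

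Gabrb2, a beta subunit of the common synaptic receptors and the most abundant of the 7 per length, was slightly lower in the libraries labelled cKO. The WT libraries held 253, 303 and 336 CPM (lowest, median and highest). The cKO libraries held 211 (cKO 8), 255 (cKO 9), 257 (cKO 12), 249 (cKO 13) and 282 CPM (cKO 14). Below every WT library lay 2 cKO libraries, and above every cKO library lay 5 WT libraries, the exceptions being WT 6 at 253 CPM and WT 15 at 281 CPM. Means were 301 ± 30.4 CPM (SD, n = 7) and 251 ± 25.7 CPM (n = 5), a ratio of 0.835 and a difference of -0.26 ± 0.08 on the log2 scale (SE; limma, adjusted p = 0.0430; exact permutation p = 0.0189). The authors' deposited table gives -0.26 with an FDR of 0.0437.

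Among the 8 libraries with Oxt above 10 CPM, the Gabrb2 difference was -0.21 (limma adjusted p = 0.177), and among the other 4 it was -0.40 (adjusted p = 0.0511). A thalamic covariate left it at -0.17 (adjusted p = 0.320), and the general neuronal score instead gave -0.37 (adjusted p = 0.0280). With the hypothalamic score it was -0.23 (adjusted p = 0.0407). Leaving out each library gave -0.30 to -0.20, and only without WT 6, WT 15 or cKO 14 did it stay past the threshold, the highest adjusted p being 0.0923 without cKO 8. Gabrb1, the other beta subunit studied and found in astrocytes as well as neurons, held 209, 226 and 259 CPM in WT (lowest, median and highest). The cKO libraries held 247 (cKO 8), 219.5 (cKO 9), 232 (cKO 12), 201 (cKO 13) and 260.2 CPM (cKO 14), and the groups overlapped almost whole. The Gabrb1 means were 229.5 ± 18.8 and 232 ± 23.0 CPM, a log2 fold change of 0.01 ± 0.07 (limma adjusted p = 0.915), whose sign turned with single libraries.

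Gabra4, the alpha subunit that pairs with delta, ran from 78.2 through a median of 98.6 to 148 CPM in WT. The cKO libraries held 84.5 (cKO 8), 90.6 (cKO 9), 50.6 (cKO 12), 102 (cKO 13) and 105 CPM (cKO 14). Apart from cKO 12, which was lowest, every cKO library lay within the WT range. Means were 104 ± 25.3 and 86.5 ± 21.7 CPM, a log2 fold change of -0.28 ± 0.19 (limma adjusted p = 0.331), which was -0.10 without cKO 12. With the thalamic score as a covariate the sign turned, to 0.29 (adjusted p = 0.0234), and with the thalamic and hypothalamic scores together, where 8.48% of all genes passed, it was 0.29 (adjusted p = 0.0187). With the general neuronal score it was -0.60 (adjusted p = 0.0556).

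Gabra2, a synaptic alpha subunit also found at the axon initial segment, had a fold change of the other sign. The WT libraries held 83.0, 106 and 129 CPM (lowest, median and highest). The cKO libraries held 186 (cKO 8), 112 (cKO 9), 132 (cKO 12), 101 (cKO 13) and 118 CPM (cKO 14), so that cKO 8 and cKO 12 exceeded every WT library and 3 lay within the WT range. The log2 fold change of 0.25 ± 0.13 did not pass the test (limma adjusted p = 0.207), and it was 0.11 without cKO 8. Gabra3, an alpha subunit of monoaminergic and reticular thalamic neurons among others, held 133 to 167 CPM in WT and 135 to 166 CPM in cKO, with a log2 fold change of 0.07 ± 0.06 (adjusted p = 0.466). Gabra5, best known from extrasynaptic receptors of the hippocampus, held 38.4 to 52.7 CPM in WT and 39.8 to 45.7 CPM in cKO, a log2 fold change of -0.04 ± 0.08 (adjusted p = 0.747). Both had cKO values lying inside the WT range.

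Set against transcript length, Gabrb2 was the most abundant of the 7 in every library. On the scale of CPM per kilobase of the longest coding transcript, the WT means were 75.4 ± 7.62 for Gabrb2, 39.7 ± 3.23 for Gabra3, 25.4 ± 6.17 for Gabra4, 18.3 ± 2.29 for Gabra2, 16.9 ± 2.10 for Gabra5, 16.7 ± 1.37 for Gabrb1 and 11.5 ± 4.14 for Gabrd (SD, n = 7). Gabrb2 exceeded Gabra3, and Gabra3 exceeded Gabra4, in all 12 libraries. Gabra4 exceeded Gabra2 in all 7 WT but 3 of 5 cKO libraries. Gabra2, Gabra5 and Gabrb1 did not keep one order in WT: Gabra2 was above Gabra5 in 4 of 7 libraries and above Gabrb1 in 5, and Gabra5 was above Gabrb1 in 5. In cKO Gabra2 was above both in all 5 libraries, and Gabra5 was above Gabrb1 in 2. With the median in place of the longest transcript length Gabrb1 moved to the fourth place, ahead of Gabra2 and Gabra5, and the other places stayed. In the cKO libraries Gabrd was at 5.62 ± 2.43 CPM per kilobase.

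Among the 4 alpha transcripts per length, Gabra3 made up the largest share in both groups, 39.7% in WT and 41.2% in cKO. The share of Gabra4 was 25.1% ± 3.90 (SD) in WT and 20.7% ± 4.59 in cKO, and that of Gabra2 18.3% ± 1.44 and 21.9% ± 4.62, while Gabra5 held 17.0% and 16.2%. These are shares of the 4 alone.

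Ratios of 2 subunits within a library do not depend on the scaling of that library. The ratio of Gabrd to Gabra4, the extrasynaptic pair, was 0.149 to 0.300 in the WT libraries. It was 0.0938 (cKO 8), 0.116 (cKO 9), 0.104 (cKO 12), 0.171 (cKO 13) and 0.122 (cKO 14) in the cKO libraries. Below every WT library lay 4 of 5 cKO libraries, and cKO 13 alone overlapped the WT range. On the log2 scale it fell from -2.30 ± 0.35 (SD, n = 7) to -3.07 ± 0.33 (n = 5), a difference of -0.77 (exact permutation p = 0.00758, and 0.0227 adjusted over the 3 ratios tested). It was -0.71 in the 8 libraries with Oxt above 10 CPM (exact permutation p = 0.0179, the smallest that 5 against 3 can give) and -1.03 in the other 4, where no test was made. Leaving out each library gave -0.90 to -0.68, with exact permutation p of at most 0.0130. Prkcd, 1 of the 11 thalamic markers and among the 3 genes most like Gabrd (below), split the cKO libraries as the ratio did, by a narrow margin. It was at 79.1 to 266 CPM in the WT libraries, at 124 CPM in cKO 13 and at 35.2 to 78.5 CPM in the 4 cKO libraries with the low ratios. Ramp3, another of the 11 and the gene most like Gabrd, did not split them so. Its WT libraries held 30.2 to 61.4 CPM, and cKO 9 (39.5 CPM) and cKO 14 (39.1 CPM) lay within that range. The score of all 11 markers did not split them as Prkcd did. It was below the lowest WT score (5.61) in cKO 13, as in cKO 8 and cKO 12. In cKO 9 (5.64) and cKO 14 (5.84), with low ratios, the score lay within the WT range, so that cKO 9 and cKO 13 were nearly equal in it. With the thalamic score as a covariate the ratio differed by -0.54, a value without a test.

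The ratio of Gabrb2 to Gabrb1 was 1.12 to 1.60 in WT and 0.854 to 1.24 in cKO, a log2 difference of -0.27 (exact permutation p = 0.0467, and 0.0701 adjusted over the 3). The ratio of Gabra4 to Gabra2, neighbours on chromosome 5, was 0.735 to 1.20 in WT and 0.383 to 1.004 in cKO, a log2 difference of -0.53 (exact permutation p = 0.0707, and 0.0707 adjusted). Its low cKO values came from cKO 8 at 0.455 and cKO 12 at 0.383, and the other 3 lay within the WT range. With the thalamic score as a covariate the difference in the Gabrb2 to Gabrb1 ratio was -0.21 and that in the Gabra4 to Gabra2 ratio turned to 0.05, again without a test.

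**Figure D2:**
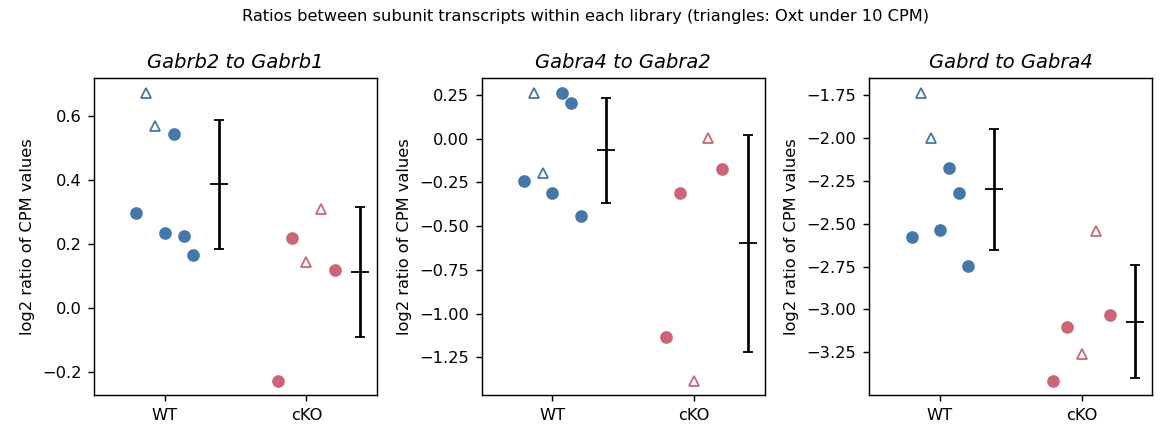
Log2 ratio of the CPM values of 2 subunits in each library (y axes, not starting at 0), by label on the x axis; bars beside the points are mean ± SD and triangles are libraries with Oxt under 10 CPM. For Gabrd to Gabra4, 4 of the 5 cKO libraries lie below the lowest WT library. In these 4 Prkcd, 1 of the 11 thalamic markers, is below its lowest WT level (79.1 CPM), narrowly so in cKO 14 (78.5 CPM). Ramp3, another of the 11, lies within its WT range in cKO 9 and cKO 14. The score of all 11 is below its lowest WT value (5.61) in cKO 8, cKO 12 and cKO 13, but not in cKO 9 and cKO 14. For Gabra4 to Gabra2 the cKO spread is carried by 2 low libraries.

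Gabra4 followed the thalamic marker score closely within the WT libraries alone. Over these 7 libraries Pearson's r was 0.995 (exact permutation p = 1.98e-04, the smallest they can give, and 0.00238 adjusted over 12 relations), and Spearman's rho was 1 (p = 3.97e-04, 0.00476 adjusted). Without the 2 libraries farthest from the median score r was 0.975, over 5 libraries, too few for a relation of their own. Over the same 5, r was -0.58 for Gabra2, -0.80 for Gabra3, -0.82 for Gabra5, -0.73 for Gabrb1 and 0.76 for Gabrb2. The relations of Gabra2, Gabra3, Gabra5, Gabrb1 and Gabrb2 to the thalamic score had adjusted exact permutation p of 0.772 or more for r and 0.50 or more for rho. For Gabrd the WT libraries fell into the groups of 3 and 4 above, so no r was computed. The low group had thalamic scores under those of the high group, as the plot of the subunits against that score shows. Gabra2 had a gap of similar size, 0.505 of its WT range beside 0.523 for Gabrd, but with 1 library, WT 4, alone below it. Its r over the 7 WT libraries contains that library. With the hypothalamic score, Gabrb2 had an r of -0.89 over the 7 WT libraries (exact permutation p = 0.00635, 0.0381 adjusted over the same 12) and a rho of -0.96 (p = 0.00278, 0.0167 adjusted). WT 4 and WT 5, poor in Oxt, had the lowest scores and the highest Gabrb2 levels, and r over the other 5 was -0.76, too few libraries for a relation of their own. The other 5 relations to this score had adjusted exact permutation p of 0.772 or more for r and 0.50 or more for rho. Over the 5 libraries without WT 4 and WT 5 their r was -0.86 (Gabra2), -0.88 (Gabra3), -0.85 (Gabra4), -0.57 (Gabrb1) and -0.26 (Gabra5).

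**Figure D3:**
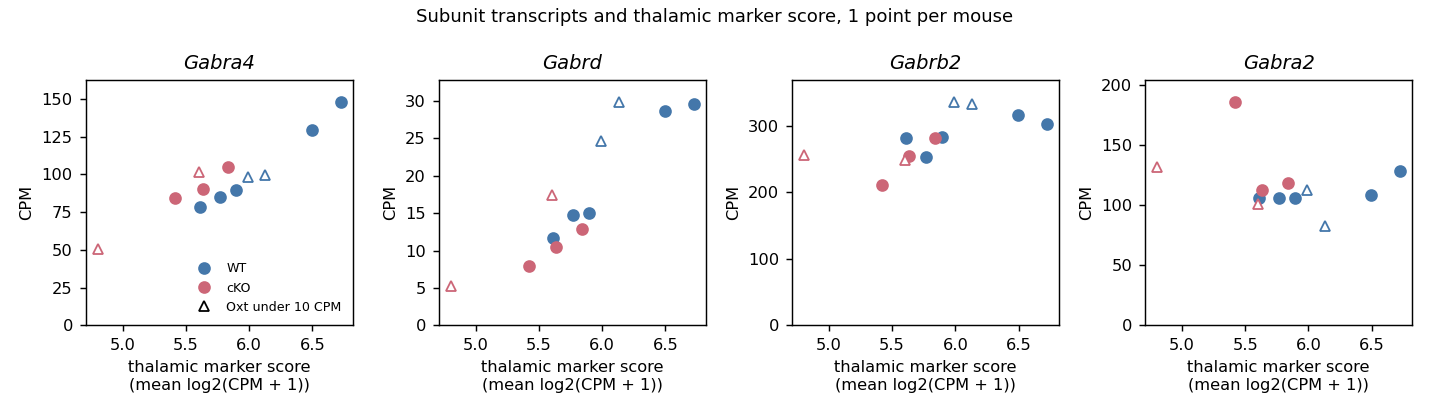
CPM of Gabra4, Gabrd, Gabrb2 and Gabra2 (y axes, from 0) against the thalamic marker score (x axis, mean log2(CPM + 1) of 11 genes), 1 point per mouse, with triangles for Oxt under 10 CPM. Gabra4 and Gabrd are lowest in cKO 12, which has the lowest score at 4.80, and highest in WT libraries, whose scores reach 6.73, whereas Gabra2 is highest in cKO 8.

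The genes most like each subunit over the 12 libraries, with group means removed, were listed by Pearson's r as a description, since all genes of a library share its tissue piece and its scaling. The r values of Gabrd here and below contain the split of its WT libraries into 3 and 4. For Gabrd they were Ramp3 (0.9796), Endou (0.965) and Prkcd (0.940), of which Ramp3 and Prkcd are in the thalamic list. Gabra4 was most like Ptpn3 (0.983), Creg1 (0.981) and Snx31 (0.962). Gabrb2 was most like Rbfox1 (0.965), Adrb1 (0.941) and Zbtb18 (0.937). Gabra5 came closest to Gm37292 (0.950), Fubp1 (0.933) and Tac2 (0.932), Gabrb1 to Jmjd1c (0.962), Hs2st1 (0.937) and Nexmif (0.933), Gabra3 to Nsg2, Slc41a3 and Mtpn (0.946, 0.946 and 0.945), and Gabra2 to Stpg1, Xrn1 and Rd3 (0.898, 0.897 and 0.891).

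The 7 subunits did not vary as a single block. Of their 21 pairs 12 had a positive and 9 a negative r, and 6 exceeded 0.5. Gabra4 and Gabrd, on different chromosomes, had an r of 0.856. Gabra4 and Gabrb1, whose starts are 387 bases apart, had an r of 0.0681, and Gabra4 and Gabra2 one of -0.0118. Gabra3 and Gabrg1, on different chromosomes, reached 0.879. Gabrb2 ran against Gabra2 (-0.486) and Gabra5 (-0.470).

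**Figure D4:**
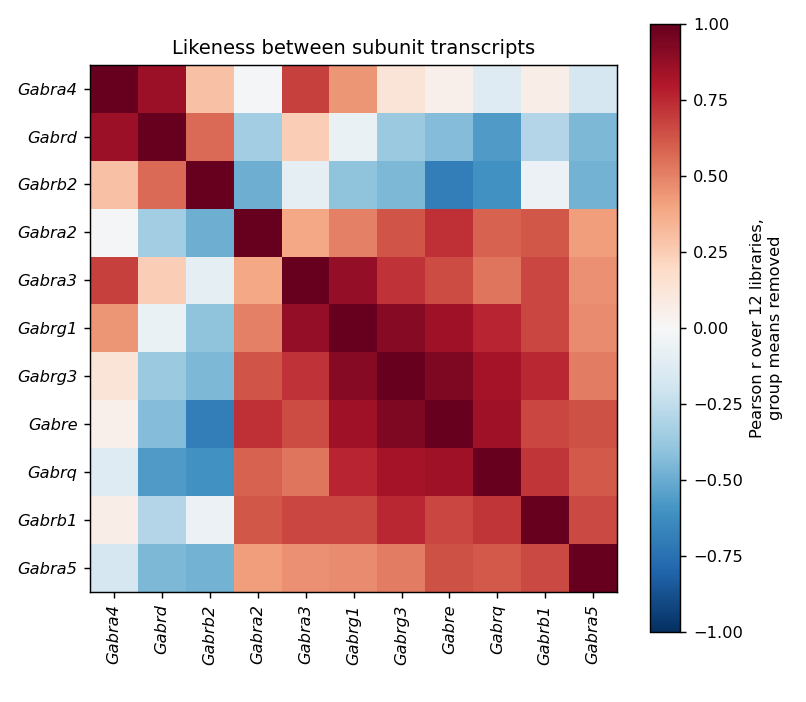
Pearson's r between subunit transcripts over 12 libraries with group means removed, in colour from -1 (blue) to 1 (red), with the same 11 genes on both axes. Gabra4 and Gabrd stand together at 0.856 and Gabra3 with Gabrg1 at 0.879, while Gabrb2 and Gabra2 are at -0.486.

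Of 9 other GABA-A subunit genes, 4 passed the minimum level and 0 of these passed the threshold in limma, edgeR or DESeq2. At an unadjusted limma p under 0.05, a level that 31.1% of all tested genes reached, there were 0 as well. Gabrg1, Gabrq and Gabrg3 had fold changes of 0.11, 0.11 and -0.07, and Gabre one of -0.23. Gabra6, Gabrp and the rho subunits Gabrr1, Gabrr2 and Gabrr3 were under the minimum, none above 1.11 CPM in any library.

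**Figure D5:**
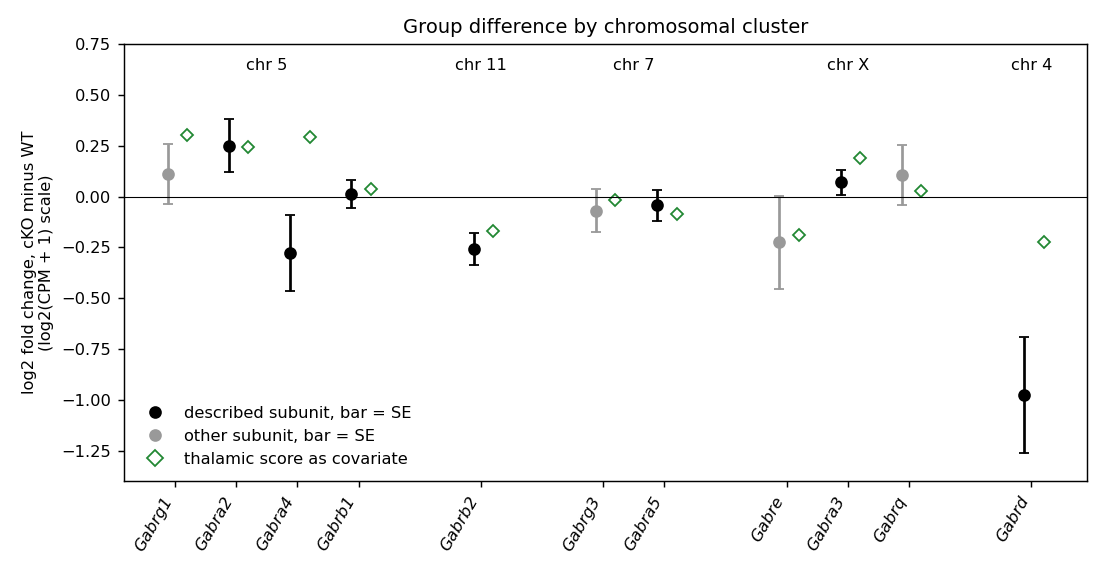
Log2 fold change, cKO minus WT, on the log2(CPM + 1) scale (y axis) for the 7 subunits (black) and 4 other measured subunit genes (grey), ordered along their chromosomes; bars are SE, and green diamonds are the fit with the thalamic score as a covariate. Gabrd is lowest at -0.98 and moves to -0.22 with the covariate, and Gabra4 goes from -0.28 to 0.29.

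Neighbours of the subunit genes gave mixed values. Within the chromosome 5 cluster the fold changes ran from -0.28 for Gabra4 to 0.25 for Gabra2, with 0.11 for Gabrg1 and 0.01 for Gabrb1, and Commd8 beyond Gabrb1 was higher (0.19 ± 0.06, limma adjusted p = 0.0392). Beside Gabrd, Prkcz had -0.02 (adjusted p = 0.856) and Cfap74 -0.24 (adjusted p = 0.156). Beside Gabrb2, Atp10b had -0.12 (adjusted p = 0.646), and beside Gabra5, Gm9962 had -0.22 (adjusted p = 0.120). Commd8 passed without each of WT 5, WT 6, WT 7, cKO 9 and cKO 14 and missed the threshold without any of the other 7 libraries, at most at 0.0822, and it missed it with the thalamic score (0.17, adjusted p = 0.181), with the general neuronal score (0.16, adjusted p = 0.175) and in the 8 libraries with Oxt above 10 CPM (0.13, adjusted p = 0.159).

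The remaining machinery of GABA signalling was examined in 4 lists. Of 8 genes for GABA synthesis, vesicle loading, uptake and breakdown, 1 rose: Abat, the enzyme that breaks GABA down, from 590 to 654 CPM (0.15 ± 0.04, limma adjusted p = 0.0389). The list's median fold change was 0.11. Gad1, which makes GABA, was at 230.2 and 321 CPM (0.47, adjusted p = 0.135), and the vesicle transporter Slc32a1 at 174 and 237 CPM (0.43, adjusted p = 0.114). Of 22 genes of the inhibitory postsynapse and of receptor trafficking, 1 rose and 1 fell, with a median of 0.05. Lhfpl4, which links receptors to neuroligin, went from 184 to 205 CPM (0.15, adjusted p = 0.0436), and Shisa7, an auxiliary subunit of GABA-A receptors, from 85.9 to 67.1 CPM (-0.35 ± 0.10, adjusted p = 0.0331). The scaffold gephyrin (Gphn) was at 80.7 and 83.6 CPM (0.05, adjusted p = 0.613). Leaving out single libraries took the limma call from Abat in 8, from Lhfpl4 in 10 and from Shisa7 in 9 of 12 cases, with the largest adjusted p at 0.0883, 0.0940 and 0.0753. With the thalamic score as a covariate none of the 3 passed in limma: Abat was at 0.08 (adjusted p = 0.359), Lhfpl4 at 0.05 (adjusted p = 0.532) and Shisa7 at -0.35 (adjusted p = 0.142). Shisa7 was at -0.21 with the general neuronal score (adjusted p = 0.245), and Lhfpl4 at 0.07 with array weights (adjusted p = 0.220) and at 0.10 in the 8 libraries with Oxt above 10 CPM (adjusted p = 0.254). In these 8 libraries Abat missed the threshold too (0.15, limma adjusted p = 0.125), as it did with the general neuronal score (0.18, adjusted p = 0.0507). Lhfpl4 also missed the threshold in edgeR (adjusted p = 0.0503), and with quantile normalization neither Lhfpl4 (0.13, limma adjusted p = 0.0944) nor Abat (0.10, adjusted p = 0.109) passed.

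Of 5 genes for the GABA-B receptor and its auxiliary subunits 1 fell, Kctd12, from 73.4 to 63.4 CPM (-0.21, limma adjusted p = 0.0197), while the receptor genes Gabbr1 and Gabbr2 had fold changes of -0.03 and -0.09. Of 4 genes listed for neuronal chloride transport, the chloride exchanger Clcn3 rose from 248 to 291 CPM (0.23 ± 0.04, limma adjusted p = 0.00383). Every cKO library was above every WT library in Clcn3. The chloride channel Clcn2 fell from 45.5 to 36.9 CPM (-0.29, adjusted p = 0.0133). The transporters Slc12a2, which brings chloride in, and Slc12a5, which takes it out, had fold changes of 0.01 and -0.04. Kctd12 missed the limma threshold with the thalamic score (-0.22, adjusted p = 0.0869), with the general neuronal score (-0.16, adjusted p = 0.125) and in the 8 libraries with Oxt above 10 CPM (-0.20, adjusted p = 0.0758), and Clcn2 missed it with the thalamic score (-0.29, adjusted p = 0.0780). In the 4 libraries poor in Oxt (2 WT, 2 cKO), where 117 of the 15359 tested genes passed in limma, none of these did. Clcn2 was at -0.13 (limma adjusted p = 0.521), Kctd12 at -0.21 (0.307) and Clcn3 at 0.24 (0.231), beside -0.29, -0.21 and 0.23 in all 12 libraries. Of the genes named from these 4 lists Clcn3 met the rule for named genes, and the others were named after their values were seen. In the 4 lists together 6 of 39 genes (15.4%) passed, 3 in each direction, beside 14.1% of all tested genes.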

How the data were processed

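Per the labels' protocols, total RNA came from a Qiagen column kit, and NEB kits served for messenger RNA isolation and for library preparation (NEBNext Ultra II RNA). The submitters' processing notes name bcl2fastq, FastQC 0.11.9, STAR 2.7.9a, SAMtools, Subread and featureCounts. Genome build, annotation and strand setting are not given in the sources used here, so reads of overlapping genes such as Gabra4 and Gabrb1 may not be told apart at their shared ends.

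The authors deposited normalized CPM for 32494 genes in 12 libraries, and their own test results with a log2 fold change, p-value and FDR per gene. In each library 100% of the deposited CPM values were whole multiples of a single step (tolerance 0.01), so reads were recovered, and 0 sample columns were left unused. A floor of 3 reads covers counting error only. No pair of libraries within a group agreed within sampling noise, with a chi-square of at least 3.04 per degree of freedom. The labels do not say more of how mice were processed, and p-values measure the spread between these libraries.

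The test was limma 3.58.1 (R 4.3.3, trended eBayes) on log2(CPM + 1) over the 15359 genes averaging 1 CPM or more, without covariates, with Benjamini-Hochberg adjustment at 0.05. It was tested on simulated data. Single values and ratios were compared with an exact two-sided permutation test. On the recovered reads, edgeR 4.0.16 (quasi-likelihood) called 2097 genes (13.7%) and DESeq2 1.42.0 called 2747 (17.9%). Other alternatives were another pseudocount, centring, quantile normalization, other minimum levels, other eBayes settings, array weights, marker scores as covariates and each library left out. Both scores together, least squares fits of the ratios with the thalamic score and the splits by Oxt were chosen after seeing the data.

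The subunits and the gene lists were chosen with earlier results of these data known. Named were Smc3, the 7 subunits, the other subunits, list genes past the threshold with ranges apart, nearest tested neighbours, and the 3 genes of highest r to each subunit. Lengths came from GENCODE M21, and promoters and gene order from RefSeq (GRCm38.p6). Some GABA-A subunit genes are not reported here.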

Additional observations from a re-analysis of the deposited data

Results flagged for a closer look

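In a check of the spread within groups, 1 of 42 groups of values held a library far from the others, where chance gives about 2.1. It was the depth of WT 1, at 68.7 M reads (megareads) against 24.0 M in the next deepest WT library. No subunit had such a library in either group. WT 1 itself lay within the range of the other WT libraries for all 7 subunits.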

How the results depend on the processing

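No paired analysis was possible because the labels number every mouse once and WT and cKO share no number. The count of genes called was 5126 with array weights, 688 with the thalamic score, 978 with the general neuronal score, 1302 with the thalamic and hypothalamic scores together and 117 in the 4 libraries with Oxt under 10 CPM, beside 2172 (1161 without WT 1 to 2309 without WT 5). With the thalamic score 35.3% of the calls were higher, beside 46.2%, and with both scores 36.6%. The fall of Gabrb2 missed the threshold in limma with median centring (-0.25, adjusted p = 0.0524), over all genes above 0 (-0.26, 0.0837), in eBayes without trend (-0.26, 0.0569), with the thalamic score (-0.17), with both scores (-0.13, 0.349), in the 8 libraries with Oxt above 10 CPM (-0.21) and in the other 4 (-0.40). That of Gabrd missed it over all genes above 0 (-0.98, 0.0727), in robust eBayes (-0.98, 0.0549), with the thalamic score (-0.22), with both scores (-0.11, 0.689), and in the 8 (-0.80) and the 4 (-1.39) libraries. With the Oxt class as a term both passed, with adjusted p of 0.0178 and 0.0232. Over all genes above 0 more genes are tested and in the 8 and 4 libraries fewer samples enter; the cause of the other changes was not tested. Single libraries left out gave -0.30 to -0.20 for Gabrb2, -1.16 to -0.77 for Gabrd, -0.36 to -0.10 for Gabra4, 0.11 to 0.33 for Gabra2, 0.04 to 0.11 for Gabra3 and -0.08 to -0.01 for Gabra5.

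Signs turned for Gabra4 (0.29 with the thalamic score and 0.29 with both), Gabra5 (0.0602 with the general neuronal score, 0.13 in the 4 libraries), Gabrb1 (-0.0050 with the hypothalamic score, -0.0083 in the 4 libraries, -0.0075 without WT 4, -0.0012 without WT 6, -0.0098 without cKO 8 and -0.0282 without cKO 14, up to 0.0639 without cKO 13), Gabrg3 (0.0616 with the general neuronal score, 0.0175 without cKO 13), Gabre (0.0938 with the general neuronal score), Gabrq (-0.0901 with both scores) and Prkcz (0.0385 with array weights, 0.0629 with the thalamic, 0.0014 with the hypothalamic and 0.0855 with both scores, 0.0013 without WT 7 and 0.0052 without cKO 8, its range over libraries left out being -0.0432 to 0.0052). None of these but Gabra4 passed the test. The log2 ratio of Gabrb2 to Gabrb1 was -0.26 in the 8 libraries (exact permutation p = 0.0536) and -0.32 to -0.19 with single libraries left out (p up to 0.103, above 0.05 without 7 of the 12), and that of Gabra4 to Gabra2 was -0.68 to -0.34 (p down to 0.0455) and turned to 0.0485 with the thalamic score. Of 491 values of single other genes under alternatives, 410 kept direction and side of the threshold, 70 lost the call, 1 gained it and 10 turned. The rho subunits, Gabra6 and Gabrp were not tested because their means were under 1 CPM.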
